A study of Mus musculus with 4 samples.

Results

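The class IIa histone deacetylases Hdac4, Hdac5, Hdac7 and Hdac9 and 6 kinases that act on them, Sik1, Camk2a, Camk2b, Camk2d, Camk2g and Camk4, were followed in the quadriceps of wild-type mice and of mice lacking the α2 exon of Mef2d. The 10 genes were taken by symbol from the table of estimated counts, which held 51826 gene rows, and each symbol was found. Libraries of poly(A) RNA came from 4 male, sedentary mice about 20 weeks old, 2 wild-type (WT) and 2 Mef2dα2 Eko, with 1 library per mouse. The mice were littermates on a C57BL6/J background from crosses of heterozygous animals. The Eko mice carried a germline deletion, made with CRISPR-Cas9, of the α2 exon of Mef2d in every tissue, so that the ubiquitous α1 exon took its place in the Mef2d transcript. The deletion was therefore not limited to muscle. The paper describes the α2 exon as specific to muscle and absent from Mef2d transcripts of the liver. Which founder line the sequenced mice came from is not given in the sources used here.

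Class IIa HDACs are transcriptional corepressors that bind MEF2 factors and hold MEF2 target genes silent while they are in the nucleus. Kinases activated by calcium and calmodulin, and kinases of the AMPK family such as the salt-inducible kinases, phosphorylate them, 14-3-3 proteins then bind the phosphorylated sites, and the complex leaves the nucleus. In skeletal muscle this route links contraction and nerve activity to the expression of metabolic and fibre-type genes. These steps act on proteins, whereas the values here are RNA levels of whole quadriceps, in which fewer cells of a type and less RNA per cell cannot be told apart.

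Total estimated counts ran from 72626757 to 85176059 per library, and levels below are CPM, in which each library was scaled by its TMM-adjusted total, with the counts where a gene was low. The 8 skeletal muscle markers, among them Myh4, Acta1 and Ckm, were detected in each mouse. They summed to between 129330 and 136620 CPM, most of it Myh4, Acta1, Ttn and Ckm. In edgeR 0 of 8 were past the threshold, and 2 of 8, Myh1 and Myh2, had an unadjusted p under 0.05. Myh1 and Myh2 passed with DESeq2. Of 16120 genes tested, 67 passed an adjusted p of 0.05 in edgeR's quasi-likelihood test, which is 0.416% of genes (0.105% higher and 0.31% lower in Eko), and 0 of the 10 members were among them, against 1 member, Sik1, with DESeq2. At an unadjusted p under 0.05, 1864 genes (11.6%, with 5.15% higher and 6.41% lower in Eko) and 2 of the 10 members passed, Hdac4 with higher and Sik1 with lower values in Eko. The WT and Eko values did not overlap for 7 of the 10 members, 4 with Eko above WT and 3 with Eko below, against 43.8% of all genes tested (20.8% above and 23% below). The median log2 fold change was 0.05 over the members and -0.01 over all genes. With 2 mice in each group an exact permutation test of 1 gene cannot give a two-sided p below 0.333, so the tests rest on the spread that edgeR shares across genes.

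**Figure D1:**
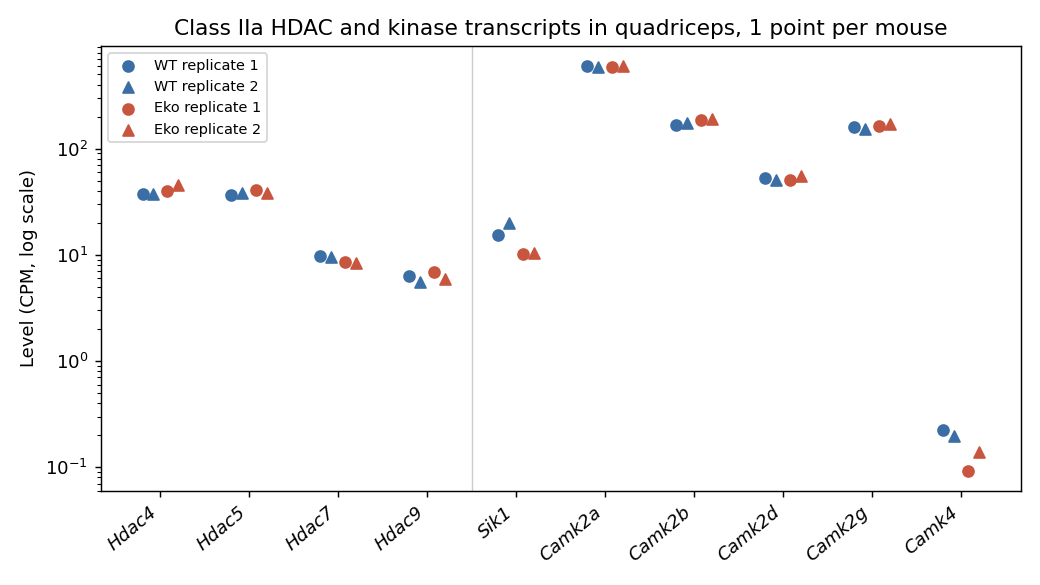
Level of each member in each of the 4 mice, in CPM on a log axis, with WT and Mef2dα2 Eko mice as separate symbols. Camk2a lay highest, between 581 and 596 CPM, Camk4 lay lowest, between 0.0928 and 0.224 CPM, and the WT and Eko points of Sik1 stood apart.

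The 4 class IIa HDAC genes showed no change that passed the test, and their summed level was 90.2 CPM in both WT mice and 96.2 and 97.7 CPM in the Eko mice. The windows before the starts of Hdac4 and Hdac5 are shown because they are the 2 most abundant of the 4 by RNA level, and because each held a motif of a factor on this route. Each line gives the 250 bases before the annotated start, 5′ to 3′ on the minus strand of GRCm38.p6, from RefSeq (Hdac4 chr1:92180342-92180591 and Hdac5 chr11:102230173-102230422). Capitals mark TGACG, the half-site of the CREB element, in Hdac4, and the match to the MEF2 consensus in Hdac5.
Hdac4: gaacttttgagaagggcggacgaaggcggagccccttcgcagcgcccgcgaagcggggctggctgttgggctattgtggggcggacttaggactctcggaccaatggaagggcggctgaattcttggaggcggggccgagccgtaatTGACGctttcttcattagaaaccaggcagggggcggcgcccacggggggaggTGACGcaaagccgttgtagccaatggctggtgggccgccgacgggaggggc
Hdac5: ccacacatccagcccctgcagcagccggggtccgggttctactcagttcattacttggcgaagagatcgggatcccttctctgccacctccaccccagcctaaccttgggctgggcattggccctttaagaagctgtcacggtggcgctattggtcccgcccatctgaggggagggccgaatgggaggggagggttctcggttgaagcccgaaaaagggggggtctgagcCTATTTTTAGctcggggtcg

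The MEF2 consensus, searched on both strands, was found in 1 of 10 promoter windows of the members, at 20 to 11 bases before the start of Hdac5, and in 2.92% of 32851 promoters. TGACG on either strand was found in 1 of the 10 windows, that of Hdac4, at 103 to 99 and at 51 to 47 bases before the start, and in 17.8% of promoters. The full palindrome TGACGTCA was in none of the 10 windows and in 1.55% of promoters. The windows belonged to Hdac4, Hdac5, Hdac7 with 4 starts, Hdac9 with 2 starts, Camk2b and Camk2d. The remaining members are Sik1, Camk2a, Camk2g and Camk4. A match describes letters in a window and is not evidence of binding.

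Hdac4 (ENSMUSG00000026313.16, chr1:91928779-92195699, minus strand), a class IIa HDAC known in muscle for its rise after denervation, had 37.4 and 37.1 CPM in WT muscle against 40.2 and 45.0 CPM in Eko muscle. Both Eko values lay above both WT values. The group means were 37.3 ± 0.251 and 42.6 ± 3.37 CPM (SD, n = 2 each), and the log2 fold change was 0.19 (SE 0.08), which did not pass (edgeR unadjusted p = 0.0440, adjusted p = 0.419). It was 0.11 without Eko replicate 2, the mouse with the highest value. Summed Schwann cell and nerve markers were also higher in both Eko mice, at 34.0 and 41.9 CPM against 27.9 and 30.9 CPM in WT, with 6 of 6 markers positive in log2 fold change (5 of 6 without WT replicate 1) and 5 of the 6 without overlap between groups. Their part in the Hdac4 values was not tested.

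Hdac5 (ENSMUSG00000008855.17, chr11:102194432-102230166, minus strand), a MEF2 corepressor exported from the nucleus on kinase signalling, stood at 36.8 and 38.1 CPM in WT and at 40.6 and 38.3 CPM in Eko. The lower Eko value lay just above the higher WT value, so the groups stood apart by little. The log2 fold change was 0.08 with a 95% interval of -0.09 to 0.24 (edgeR adjusted p = 0.724). It was 0.047 without Eko replicate 1 and 0.12 without Eko replicate 2, and a correction for GC content moved it to 0.17.

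Hdac7 (ENSMUSG00000022475.19, chr15:97792664-97844502, minus strand), known for its role in endothelial cells and thymocytes, was at 9.71 and 9.53 CPM in WT and at 8.50 and 8.44 CPM in Eko. The 2 Eko mice lay below both WT mice and close to each other. The log2 fold change was -0.18 with a 95% interval of -0.40 to 0.04 (edgeR adjusted p = 0.502), and with the GC correction it was -0.09. Endothelial markers summed to 177 and 159 CPM in WT and to 153 and 178 CPM in Eko, and 6 of the 7 overlapped between groups. The other one, Tie1, an endothelial receptor named after its value was seen, had a log2 fold change of -0.19 (edgeR adjusted p = 0.50), which was -0.081 without Eko replicate 1, -0.29 without Eko replicate 2 and -0.11 with the GC correction. The part of endothelial cells in the Hdac7 values was not tested.

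Hdac9 (ENSMUSG00000004698.10, chr12:34047580-34917095, minus strand), which in muscle is known to be tied to innervation and is itself a target of MEF2, was the lowest of the 4 at 6.31 and 5.51 CPM in WT and 6.91 and 5.87 CPM in Eko. The groups overlapped. Its log2 fold change was 0.11 with a 95% interval of -0.20 to 0.43 (edgeR adjusted p = 0.792). Single mice moved it, to 0.0022 without Eko replicate 1, 0.032 without WT replicate 2, 0.21 without WT replicate 1 and 0.23 without Eko replicate 2.

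Levels per kilobase of exon sequence were used to compare the 4 genes with each other. Hdac5 gave the largest share of the class IIa HDAC RNA, 50.5 ± 1.06% in WT and 50.6 ± 1.89% in Eko (SD, n = 2 each). Hdac4 followed with 27.9 ± 0.297% and 30.4 ± 2.47%, then Hdac7 with 16.9 ± 0.287% and 14.1 ± 0.0319%, and Hdac9 with 4.77 ± 0.474% and 4.91 ± 0.553%. The order was the same in both groups. The share of Hdac7 was lower in both Eko mice than in both WT mice, while the shares of Hdac5 differed by less than their SD. Shares of 1 family sum to 100, so they do not move independently.

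**Figure D2:**
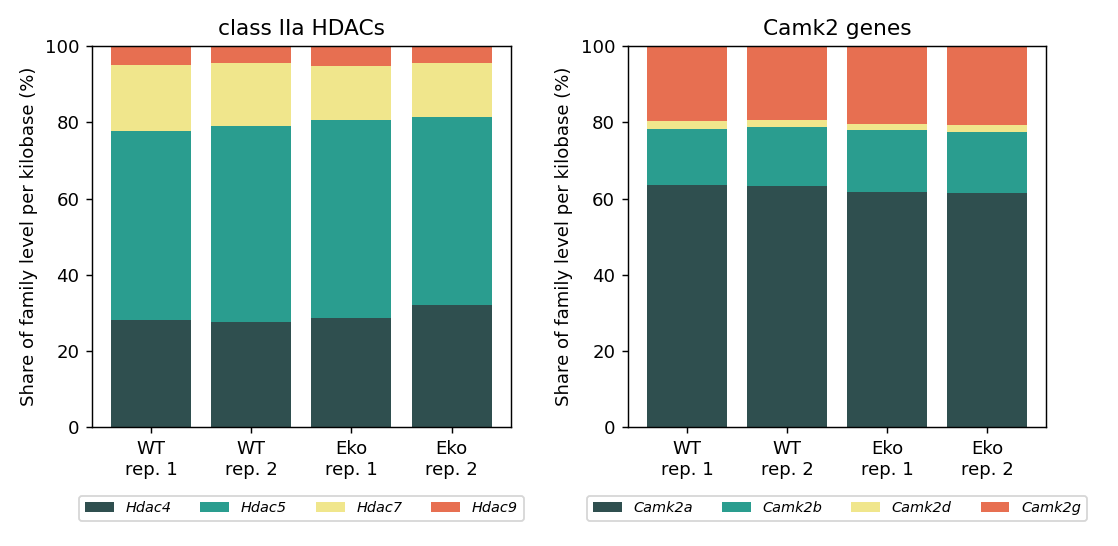
Percentage of the per-kilobase RNA level that each gene took within the class IIa HDACs and within the CaMKII genes, as stacked bars with 1 bar for each mouse. Hdac5 took about 50.5% and Camk2a about 63.5% in WT, and the order of the genes did not differ between the genotypes.

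Sik1 (ENSMUSG00000024042.7, chr17:31844250-31855804, minus strand), a salt-inducible kinase that phosphorylates class IIa HDACs and is itself a classical target of CREB, had the largest difference of the members expressed above 1 CPM. The WT libraries held 1159 and 1610 counts of it and the Eko libraries 870 and 742, or 15.3 and 19.9 CPM against 10.1 and 10.4 CPM. Both Eko mice lay below both WT mice, and the WT mice were farther from each other than the Eko mice were. The means were 17.6 ± 3.28 and 10.2 ± 0.200 CPM (SD, n = 2 each), a ratio of 0.581 with a 95% interval of 0.468 to 0.722. The log2 fold change was -0.78 (SE 0.13), with an unadjusted p of 0.000613 and an adjusted p of 0.0923 in edgeR's quasi-likelihood test, so the call was not made. The gene ranked 107 by p among the 16120 tested.

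The call on Sik1 depended on the test and on which mice were fitted. With DESeq2, whose calls took in 318 genes (1.97% of those tested), the log2 fold change was -0.77 and the adjusted p 0.000190. It also passed with DESeq2 on every gene with a count (adjusted p = 0.000131, 1.15% of genes called) and with edgeR's likelihood ratio test (adjusted p = 0.000125, 1.94% of genes called). Without WT replicate 1, the WT mouse with the lower value, it was -0.96 (edgeR adjusted p = 0.00820), and without WT replicate 2 it was -0.57 (edgeR adjusted p = 0.0523). The direction was negative under all 16 alternatives, of which 8 passed the threshold.

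Macrophage markers moved with the groups beside Sik1, and adipocyte markers overlapped between them. Macrophage markers summed to 46.0 and 36.1 CPM in WT and to 30.6 and 23.6 CPM in Eko, with 6 of 6 negative in log2 fold change (5 of 6 without WT replicate 1 or Eko replicate 2) and 4 of the 6 without overlap. Adipocyte markers summed to 120 and 83.4 CPM in WT and to 86.7 and 66.0 CPM in Eko, with 5 of 6 negative and 5 of 6 overlapping. Their median log2 fold change was -1.08, against -0.63 for the macrophage markers, and 3 of the 6 had an edgeR unadjusted p under 0.05. The adipocyte median was -0.31 without WT replicate 1 and -1.84 without Eko replicate 1. In both lists WT replicate 1 had the higher sum of the WT mice. The part of these cells in the Sik1 values was not tested.

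**Figure D3:**
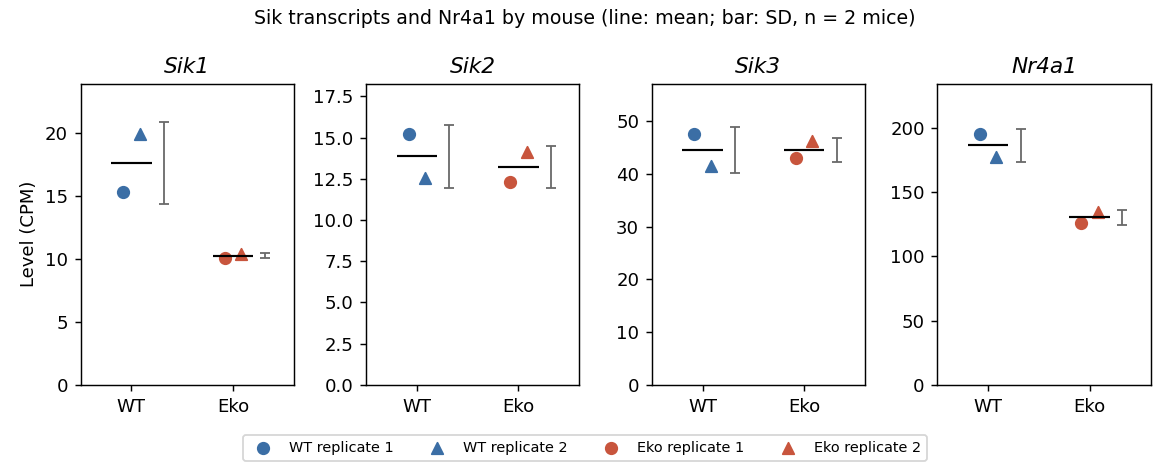
Level in CPM of Sik1, Sik2, Sik3 and Nr4a1 in each of the 4 mice on linear axes from 0, with the group mean as a line and its SD (n = 2) as a bar. Sik1 lay at 15.3 and 19.9 CPM in WT and at 10.1 and 10.4 CPM in Eko, while the WT and Eko points of Sik2 and of Sik3 overlapped and those of Nr4a1 did not.

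The other salt-inducible kinases were looked at after their values were seen. Sik2 was at 15.2 and 12.5 CPM in WT and at 12.3 and 14.1 CPM in Eko, a log2 fold change of -0.07 with a 95% interval of -0.36 to 0.22 (edgeR adjusted p = 0.874). Sik3 had a log2 fold change of 0.00 with an interval of -0.21 to 0.21 (edgeR adjusted p = 0.998). Both overlapped between groups and changed sign when single mice were left out, Sik2 from -0.19 without WT replicate 2 to 0.079 without WT replicate 1, and Sik3 from -0.082 to 0.10 without the same mice. Whether Sik1 differed from Sik2 or Sik3 in its fold change was not tested.

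The genes whose log2 CPM followed that of Sik1 most closely over the 4 mice were Poldip2, 1810044D09Rik and Nup210, each with a Pearson r of 1.00 after rounding. This is a description over 4 points, and 102 of the 16120 genes (0.633%) had an r above 0.99.

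The 4 CaMKII genes encode the subunits of the calcium/calmodulin-dependent kinase that docks on Hdac4 and phosphorylates it, and none passed the test. Their summed level was 977 and 965 CPM in WT and 984 and 1009 CPM in Eko. Camk2a (ENSMUSG00000024617.16, chr18:60925618-60988152, plus strand), the α subunit gene, was the most abundant of the members at 596 and 586 CPM in WT and 581 and 593 CPM in Eko. The groups overlapped. Its log2 fold change was -0.01 with a 95% interval of -0.17 to 0.15 (edgeR adjusted p = 0.975). As a ratio the interval ran from 0.891 to 1.11. A count over the whole gene takes in all 7 annotated transcripts of Camk2a. It does not show which of them, or which protein, made up this level.

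Camk2b (ENSMUSG00000057897.14, chr11:5969644-6066362, minus strand), the β subunit gene, was at 168 and 175 CPM in WT and at 187 and 189 CPM in Eko. Both Eko mice lay above both WT mice. The log2 fold change of 0.14 (SE 0.06) did not pass (edgeR adjusted p = 0.477). Camk2g (ENSMUSG00000021820.18, chr14:20734875-20794088, minus strand), the γ subunit gene, was at 159 and 154 CPM in WT and at 165 and 171 CPM in Eko. Its groups did not overlap either, and its log2 fold change was 0.10 with an interval of -0.05 to 0.26 (edgeR adjusted p = 0.590). The nerve markers given beside Hdac4 were higher in the same mice, and their part in the Camk2b and Camk2g values was not tested.

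Camk2d (ENSMUSG00000053819.16, chr3:126596302-126846326, plus strand), the δ subunit gene best known from the heart, was at 53.4 and 50.9 CPM in WT and at 50.9 and 54.7 CPM in Eko. The groups overlapped, and the log2 fold change was 0.02 with a 95% interval of -0.15 to 0.19 (edgeR adjusted p = 0.949).

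Per kilobase of exon sequence, Camk2a held 63.5 ± 0.256% of the RNA of the CaMKII genes in WT and 61.5 ± 0.149% in Eko (SD, n = 2 each). Camk2g held 19.6 ± 0.237% and 20.5 ± 0.241%, Camk2b 15.1 ± 0.539% and 16.1 ± 0.155%, and Camk2d 1.86 ± 0.0456% and 1.83 ± 0.0635%. The share of Camk2a was lower in both Eko mice than in both WT mice, by more than the SD of either group. The order of Camk2g and Camk2b depended on the transcript length used, and with the longest coding transcript their WT shares differed by less than the SD of Camk2b, with Camk2g above Camk2b in WT replicate 1. Levels per kilobase placed Camk2a at the percentile 98.0 of all genes tested, Camk2g at 93.4, Camk2b at 91.4 and Camk2d at 58.4. These percentiles used all exon sequence of a gene as its length and depend on that choice. For Camk2d it was 22493 bases, against 5524 for the longest coding transcript.

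Camk4 (ENSMUSG00000038128.7, chr18:32934931-33191228, plus strand), a nuclear CaM kinase known from neurons and T cells, was close to the limit of detection. The WT libraries held 17 and 16 counts of it and the Eko libraries 8 and 10, or 0.224 and 0.198 CPM against 0.0928 and 0.140 CPM, where 3 counts correspond to 0.0348 to 0.0419 CPM. Both Eko mice lay below both WT mice. The log2 fold change was -0.86 with a 95% interval of -2.11 to 0.38 (edgeR adjusted p = 0.578). As a ratio the interval lay between 0.232 and 1.3, so a difference was not detectable at this depth. When 1 mouse was left out, the log2 fold change ran from -1.17 to -0.57. Of the T cell markers, 1 of 7 was high enough to be tested, Cd3e, at 1.90 and 2.39 CPM in WT and 2.41 and 2.07 CPM in Eko, and its groups overlapped.

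**Figure D4:**
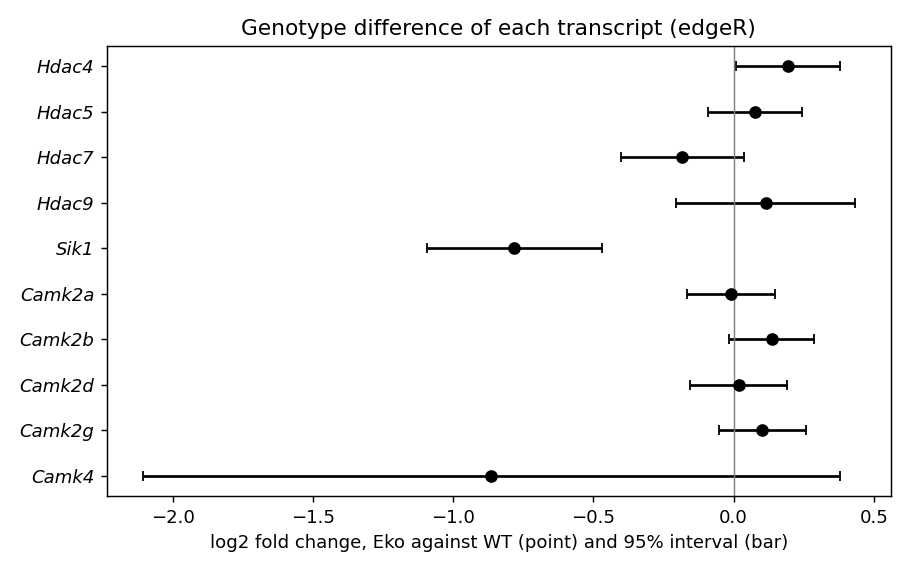
Log2 fold change of each member, Eko against WT, with its 95% interval from edgeR's quasi-likelihood fit. The interval of Sik1 ran from -1.09 to -0.47, that of Hdac4 from 0.01 to 0.38, and those of the other 8 members crossed 0.

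The other genes of the route were read from 8 lists holding 89 genes, of which 86 were tested. None passed the adjusted threshold in edgeR, 3 passed with DESeq2 (Nr4a1, Mb and Fbxo32), 6 had an unadjusted p under 0.05 in edgeR (these 3 with Nr4a2, Mark2 and Prkaa2), and 29 of the 86 (33.7%) did not overlap between groups, against 43.8% of all genes. The median log2 fold change of these genes was -0.03.

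Among the other histone deacetylases, 7 of 7 were tested and 0 passed, with a median log2 fold change of 0.00. The gene with the smallest p was Hdac8, a class I enzyme, with 2.32 ± 0.265 CPM in WT and 2.68 ± 0.0661 CPM in Eko (edgeR adjusted p = 0.687). Its log2 fold change of 0.21 was 0.094 without WT replicate 1 and 0.34 without WT replicate 2. Of 10 corepressor partners none passed, and Cbx5, which encodes the heterochromatin protein HP1α, had the smallest p with a log2 fold change of 0.17 (edgeR adjusted p = 0.469), which was 0.26 without Eko replicate 1, 0.089 without Eko replicate 2 and 0.11 with the GC correction.

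Of 15 further genes, for kinases that act on class IIa HDACs and for activators and partners of such kinases, 14 were tested and 0 passed. Mark2, a polarity kinase, had a log2 fold change of -0.20 (edgeR adjusted p = 0.400), which ran from -0.24 to -0.12 over the alternatives. Prkaa2, the catalytic α2 subunit of AMPK, had one of 0.20 (edgeR adjusted p = 0.422). For Prkaa2 it was 0.30 without Eko replicate 1, 0.10 without Eko replicate 2 and 0.13 with the GC correction. Among 9 calmodulin genes and CaMK regulators none passed. Camkk2, which encodes an activating kinase of CaMKIV and AMPK, was at 3.73 ± 0.229 CPM in WT and at 2.90 ± 0.407 CPM in Eko (log2 fold change -0.36, edgeR adjusted p = 0.454, and -0.23 without Eko replicate 2).

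The 10 genes for 14-3-3 proteins and nuclear transport all had a log2 fold change below 0, from -0.18 to -0.01, and 0 passed. The count below 0 was 5 of 10 without Eko replicate 1 and 7 of 10 without WT replicate 2. Xpo1, the exportin that carries class IIa HDACs out of the nucleus, had the smallest p, with 31.7 ± 2.13 CPM in WT and 27.9 ± 1.73 CPM in Eko (edgeR adjusted p = 0.466). Its log2 fold change of -0.18 was -0.11 without WT replicate 1 and -0.12 without Eko replicate 2. Of the 4 MEF2 genes, Mef2d included, 3 were tested and 0 passed. Mef2a had a log2 fold change of 0.09 (edgeR adjusted p = 0.665), which was 0.15 without Eko replicate 1, 0.045 without Eko replicate 2 and 0.027 with the GC correction. Mef2d itself, whose exon was deleted, was at 259 and 227 CPM in WT muscle against 252 and 241 CPM in Eko muscle, with overlapping groups (log2 fold change 0.02, edgeR adjusted p = 0.960). A count over the whole gene holds reads of either exon, so this value does not check the genotype.

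The CRTC and CREB list holds coactivators that SIK kinases keep in the cytoplasm and the immediate targets of CREB. It had 16 of 16 genes tested and 0 called. Of these, 7 had a log2 fold change above 0 and 9 below, from -1.19 to 0.63 with a median of -0.02. The groups overlapped for 13 of the 16. Nr4a1, an orphan nuclear receptor induced by contraction and a target of both CREB and MEF2, stood at 195 and 178 CPM in WT and at 126 and 135 CPM in Eko. Both Eko mice lay below both WT mice. The log2 fold change was -0.51 (SE 0.08), with an adjusted p of 0.0619 in edgeR. The adjusted p was 0.0181 without WT replicate 2 and 0.0699 to 0.205 when any other mouse was left out, so only 1 of these 4 fits passed. Nr4a2 had a log2 fold change of -1.19 from 1.68 ± 0.845 to 0.732 ± 0.146 CPM (edgeR adjusted p = 0.324), which was -0.54 without WT replicate 2.

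Of 18 muscle genes under MEF2 and class IIa HDAC control 17 were tested and 0 passed. Mb, the oxygen store myoglobin, was at 1366 ± 90.2 CPM in WT and at 967 ± 117 CPM in Eko (log2 fold change -0.50, edgeR adjusted p = 0.156). Slow fibre markers, which mark fibres rich in myoglobin, summed to 264 and 673 CPM in WT and to 486 and 292 CPM in Eko and overlapped between groups. Their median log2 fold change of -0.18 was -0.75 without WT replicate 1, 0.72 without WT replicate 2, -0.63 without Eko replicate 1 and 0.18 without Eko replicate 2. The myosin genes of faster oxidative and intermediate fibres, Myh2 and Myh1, lay lower in both Eko mice beside Mb. Myh2 had 1576 and 1709 CPM in WT muscle against 1264 and 1040 CPM in Eko muscle (log2 fold change -0.51, edgeR adjusted p = 0.161). It passed with every DESeq2 setting, with edgeR's likelihood ratio test and without a filter. Myh1 had 4966 and 3983 CPM in WT muscle against 3475 and 3120 CPM in Eko muscle (log2 fold change -0.44, edgeR adjusted p = 0.261). That fold change was -0.27 without WT replicate 1 and -0.58 without WT replicate 2. Myh1 passed with every DESeq2 setting and without a filter, but not with edgeR's likelihood ratio test. The part of fibre types in the Mb values was not tested. Fbxo32, the ubiquitin ligase atrogin-1 of muscle wasting, was at 261 ± 8.93 CPM in WT and at 336 ± 25.0 CPM in Eko (log2 fold change 0.37, edgeR adjusted p = 0.162). Prkaa2, Nr4a2, Fbxo32, Myh1 and Myh2 were named after their values were seen.

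**Figure D5:**
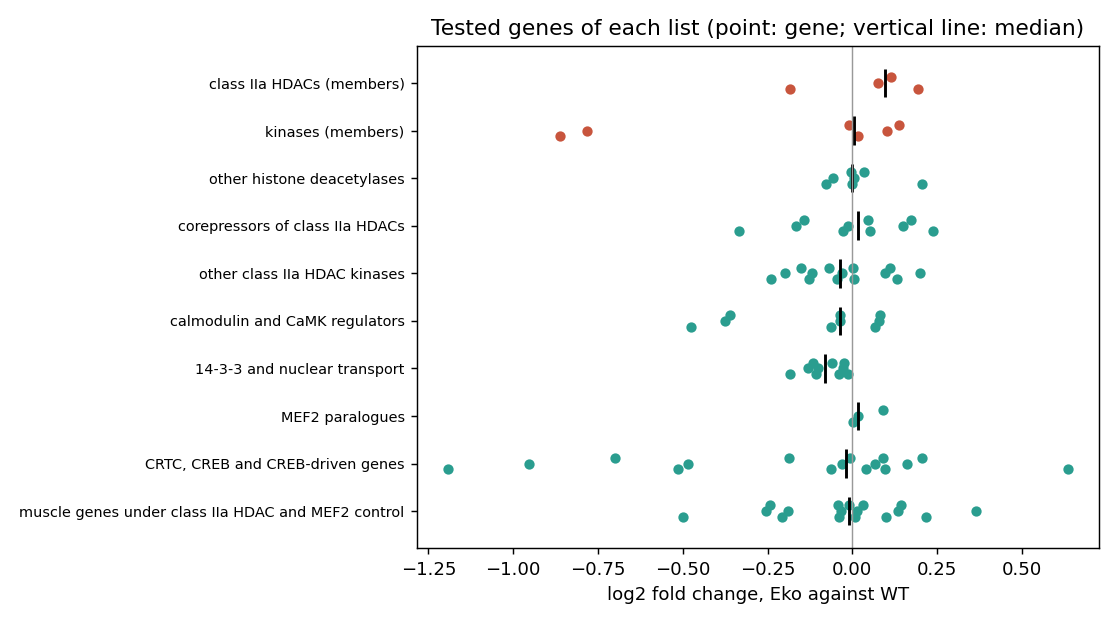
Log2 fold change, Eko against WT, of every tested gene among the members and the 8 lists around them, with 1 point per gene and a vertical line at each median. The points of the 14-3-3 and nuclear transport list all lay below 0, between -0.18 and -0.01, and the CRTC and CREB list had the widest spread.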

How the data were processed

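Poly(A) RNA from quadriceps of 2 WT and 2 Mef2dα2 Eko mice was sequenced by the authors after a strand-marking library kit. The authors checked reads with FastQC, aligned them with STAR (version 2.6.1a in the submitters' processing notes) and estimated gene expression with RSEM on the Ensembl annotation of GRCm38. The deposited values are estimated counts (expected counts) per gene symbol, not normalized. All were whole, so no rounding was needed. Whether counting used strand is not given in the sources used here, and Hdac4, Hdac7, Hdac9, Camk2d and Camk4 overlap genes on the other strand. No stretch of 75 bases of the longest coding transcript was shared between members.

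Genes were filtered with filterByExpr, scaled by TMM and tested with edgeR 4.0.16 (glmQLFit, glmQLFTest, R 4.3.3), with Benjamini-Hochberg adjustment over 16120 genes at 0.05, group as the only term. The code was tested on simulated data. DESeq2 1.42.0 and limma-voom 3.58.1, other scalings and filters, a GC correction, a replicate block and leaving out each mouse were alternatives. Each mouse was 1 library, and 3 counts were taken as the floor, which covers counting error only. Positions and lengths are from GENCODE M21 (GRCm38). The members and gene lists were chosen with earlier results of these data known. Named genes were the 10 members, Mef2d, every listed gene past the threshold, the gene of smallest p in each list and the 3 genes most like the member of smallest p.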

Additional observations from a re-analysis of the deposited data

How the results depend on the processing

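Genes past the threshold numbered 67 in edgeR, 318 with DESeq2, 309 with DESeq2 without independent filtering, 284 with DESeq2 on every gene with a count, 312 with edgeR's likelihood ratio test, 799 without a filter, 23 with a filter of 1 CPM in 2 libraries, and 28 to 240 when 1 mouse was left out (240 without WT replicate 2, 30 and 28 without Eko replicate 1 and 2). WT replicate 1 stood apart from the other mice in the chi-square per degree of freedom between 2 libraries, a measure of how far they differ. It was 119 to 215 for pairs with WT replicate 1, with 148 for WT replicate 2, and 35.5 to 42 for the other pairs. DESeq2 on every gene and the longest coding transcript as length were chosen after seeing the data. The mice were littermates, but the sources used here do not say that a replicate number marks a litter, and over 2 pairs the deviations of same-numbered mice correlated at 0.0909. With the replicate block 186 genes passed, and 202 with the GC correction and the block. Members past the threshold numbered 0, and 1 (Sik1) with both DESeq2 settings, DESeq2 on every gene, the likelihood ratio test, no filter, the replicate block with or without the GC correction, and without WT replicate 1, so 0 to 1 when 1 mouse was left out. Listed genes past it numbered 0, 3 with each DESeq2 setting and the likelihood ratio test, 3 with the replicate block with or without the GC correction (Mb, Nr4a1 and Nr4a3), 8 without a filter, and 0 to 1 when 1 mouse was left out.

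Sik1 passed at a log2 fold change of -0.77 with every DESeq2 setting and the replicate block (edgeR adjusted p = 0.0177 with the block), -0.78 with the likelihood ratio test and without a filter, and -0.70 with the GC correction and the block. When 1 mouse was left out it ran from -0.96, which passed, to -0.57, and -0.96 was the only one of these 4 to pass. Values near 0 changed sign. Camk2a went to 0.031 with the GC correction, with or without the replicate block, to 0.0010 with DESeq2 on every gene, and from -0.024 to 0.018 when 1 mouse was left out. Camk2d went to -0.026 with the GC correction, to -0.027 with the correction and the block, and from -0.036 to 0.082 when 1 mouse was left out. Mef2d went from -0.064 to 0.11 when 1 mouse was left out, Sik2 from -0.19 to 0.079 and Sik3 from -0.082 to 0.10, and Sik3 went to -0.0027 with upper-quartile normalization and to -0.0026 with the filter of 1 CPM. With the longest coding transcript as length, shares moved to 30.0% (Hdac4, WT), 14.8% and 12.4% (Hdac7, WT and Eko), 55.8% and 53.7% (Camk2a), 20.0% and 21.3% (Camk2b), and 4.43% and 4.34% (Camk2d). The cause of these changes was not tested. With 2 mice in each group, small differences were not detectable, and Camk4 was limited by its 8 to 17 counts.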
